A study of Homo sapiens with 18 samples.

Results

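The genes described here are the heat shock transcription factor HSF1 and 9 genes of the cytosolic chaperone system: HSPA1A, HSPA1B, HSPA8, HSPH1, DNAJB1, HSP90AA1, HSP90AB1, HSPB1 and BAG3. They were chosen by gene symbol, and all 10 were present among the 17017 genes of the deposited table. RNA and ribosome footprints were measured in MDA-MB-231, an established human line of triple-negative breast carcinoma, after lentiviral knockdown of fibrillarin (FBL), the enzyme that places 2'-O-methyl groups on ribosomal RNA. There were 3 treatments: SC, read here as the scramble control, and the hairpins SH2 and SH3, both of which the labels place against fibrillarin mRNA without saying which is knockdown 1 or 2. Every treatment, SC included, went through lentiviral transduction, puromycin selection, growth in medium with serum and human insulin, and a short exposure to cycloheximide, a drug that stops elongating ribosomes, before lysis. From each lysate a part was kept as cytoplasmic RNA (labelled IN), and the rest was digested with RNase I for ribosome-protected footprints (labelled RPF). Each treatment had 3 replicates of each kind, which gives 18 libraries. The labels do not say that replicates came from separate cultures, so p-values measure the spread between these samples, which may be technical.

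HSF1 is the main transcription factor of the heat shock response. In unstressed cells it is held inactive by chaperones, and when unfolded proteins occupy those chaperones it forms trimers that bind heat shock elements, repeats of GAA and TTC units in alternating order, and drives chaperone genes. HSP70 proteins bind exposed hydrophobic stretches, J-domain proteins such as DNAJB1 stimulate their ATPase, and exchange factors such as HSPH1 and BAG3 release the nucleotide. HSP90 proteins finish the folding of kinases and receptors, and small heat shock proteins such as HSPB1 hold unfolded proteins for refolding. HSPA8 and HSP90AB1 are the constitutive forms, and HSPA1A, HSPA1B and HSP90AA1 are the inducible ones.

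The promoter windows of 6 members are shown because HSF1 acts through GAA and TTC units and the members differ in how many of them lie near the start. For HSP90AA1 and HSP90AB1, which have several annotated starts, the window with the most matches is shown. The windows are from RefSeq on build GRCh38.p14 and run from 250 bases before to 50 bases after an annotated start. Capitals mark each match to GAANNTTC or TTCNNGAA, both of which read the same on either strand. The longer forms GAANNTTCNNGAA and TTCNNGAANNTTC, which are each other's reverse complement and contain overlapping short matches, were counted too.
HSPA1A, chr6:31815293-31815592, plus strand
HSPA1A: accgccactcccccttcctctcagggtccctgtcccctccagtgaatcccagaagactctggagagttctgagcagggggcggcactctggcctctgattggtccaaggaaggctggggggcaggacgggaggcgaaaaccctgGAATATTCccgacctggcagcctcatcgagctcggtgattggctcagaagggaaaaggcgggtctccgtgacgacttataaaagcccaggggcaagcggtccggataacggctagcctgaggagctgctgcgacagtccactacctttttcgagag
HSPA1B, chr6:31827488-31827787, plus strand
HSPA1B: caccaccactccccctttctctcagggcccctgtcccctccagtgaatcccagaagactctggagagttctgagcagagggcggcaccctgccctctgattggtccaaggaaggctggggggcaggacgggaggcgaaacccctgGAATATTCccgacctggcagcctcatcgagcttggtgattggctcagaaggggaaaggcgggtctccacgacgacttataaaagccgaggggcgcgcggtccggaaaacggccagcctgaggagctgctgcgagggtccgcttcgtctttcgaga
HSPA8, chr11:123062087-123062386, minus strand
HSPA8: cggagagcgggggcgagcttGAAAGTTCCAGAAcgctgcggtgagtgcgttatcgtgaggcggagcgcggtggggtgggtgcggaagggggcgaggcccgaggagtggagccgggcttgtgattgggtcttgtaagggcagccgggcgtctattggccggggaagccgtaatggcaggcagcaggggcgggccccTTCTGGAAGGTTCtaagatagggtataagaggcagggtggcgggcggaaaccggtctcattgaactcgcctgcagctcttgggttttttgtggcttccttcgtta
HSP90AA1, chr14:102086995-102087294, minus strand
HSP90AA1: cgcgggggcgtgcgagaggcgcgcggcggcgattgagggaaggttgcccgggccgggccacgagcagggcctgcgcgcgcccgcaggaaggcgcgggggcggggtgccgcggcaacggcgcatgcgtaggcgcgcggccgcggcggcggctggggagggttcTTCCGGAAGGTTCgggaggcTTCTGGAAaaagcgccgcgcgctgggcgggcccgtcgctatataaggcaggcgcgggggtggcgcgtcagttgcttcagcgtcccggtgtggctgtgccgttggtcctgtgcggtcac
HSP90AB1, chr6:44247693-44247992, plus strand
HSP90AB1: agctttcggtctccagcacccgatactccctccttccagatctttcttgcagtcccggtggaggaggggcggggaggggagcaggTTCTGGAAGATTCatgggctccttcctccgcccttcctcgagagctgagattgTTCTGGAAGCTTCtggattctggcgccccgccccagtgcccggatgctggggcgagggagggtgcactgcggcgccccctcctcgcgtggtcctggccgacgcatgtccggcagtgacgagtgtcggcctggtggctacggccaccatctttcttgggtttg
BAG3, chr10:119651130-119651429, plus strand
BAG3: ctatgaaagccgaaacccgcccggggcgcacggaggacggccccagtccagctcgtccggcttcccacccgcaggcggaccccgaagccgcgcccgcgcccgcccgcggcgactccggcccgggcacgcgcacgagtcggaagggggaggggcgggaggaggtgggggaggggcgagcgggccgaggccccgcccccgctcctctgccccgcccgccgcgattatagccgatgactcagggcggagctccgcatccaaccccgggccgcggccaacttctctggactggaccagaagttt

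The table of promoters holds 9 of the members (all but HSF1), in 14 windows. A short match was present in 8 of these 14 windows, in 7 members, against 13.5% of all 35116 windows of the table (4737 windows). A long match was present in 3 of the 14 windows, 1 each of HSPA8, HSP90AA1 and HSP90AB1, against 0.49% of all windows (172 windows). HSPA8 and HSP90AB1 each held 2 long matches, which in HSPA8 began 230 and 55 bases before the start. In HSP90AB1 they began 165 and 112 bases before 1 of its 3 annotated starts, the one furthest downstream. The long match of HSP90AA1 began 88 bases before 1 of its 2 annotated starts, with a further short match 68 bases before it. The windows of the other annotated starts of HSP90AB1 and HSP90AA1 held no match. HSPA1A and HSPA1B had 1 short match each, 106 and 105 bases before the start. Their windows, set against each other with an offset of 1 base, were identical at 277 of 299 bases (92.6%). DNAJB1 had short matches 77 and 47 bases before 1 of its 3 annotated starts and 1 just after another, and HSPB1 had 1 that began 182 bases before its start. BAG3 and HSPH1 had no match in this window, which says only that these letters are not there. A match is a run of letters and not a bound site.

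Library totals were 23469830 to 27629488 counts in RNA and 1662705 to 6098648 in footprints, so footprint values carry the larger counting error. FBL fell in both hairpins, with log2 changes of -6.08 in SH2 and -6.80 in SH3 in RNA and of -4.44 and -5.52 in footprints. Within SH2 its level ran from 1.25 to 11.2 CPM in RNA and from 4.42 to 30.0 CPM in footprints, and without SH2 replicate 3 the SH2 changes were -7.09 and -5.87. Of the markers of the line, VIM, CD44, EGFR and AXL were expressed, and ESR1, PGR and CDH1 stood at 0 to 11 counts in every library, but ERBB3, which was listed as absent, had group means of 7.39 to 14.2 CPM in RNA. Replicate numbers tie SC to SH2 within each library kind, but they do not tie RNA to footprints. In SC, RNA replicate 1 deviated from its group mean together with footprint replicate 2 (r = 0.576 across 10335 genes, which are not independent replicates) and against footprint replicate 1 (r = -0.49), and RNA replicate 2 went with footprint replicate 1 (r = 0.458). SH2 showed the same crossing (r = 0.563 and 0.497), while replicate 3 of both and all 3 of SH3 went with their own number (r = 0.208 to 0.503). Footprint-to-RNA ratios are therefore given for groups and not for single lysates.

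After fibrillarin knockdown the 10 genes did not all move the same way. HSP90AA1, the inducible HSP90, had less RNA in both hairpins, with log2 changes of -0.44 in SH2 and -0.50 in SH3 (n = 3 in each group here and below). HSPA8, the constitutive HSP70, also had less RNA in both (-0.38 and -0.38). BAG3, a partner of HSP70, went in opposite directions (0.64 and -0.56). HSP90AB1 RNA was called higher in SH2 and HSPH1 RNA lower in SH2, and the RNA of HSPA1A and HSPA1B was called lower in SH3. The main fit leaves out the tie of SC to SH2 by replicate number. With that number as a block, HSPA1A, HSPA1B and HSPB1 RNA was also called lower in SH2. HSF1 RNA was not called in either hairpin. Called here means an adjusted p under 0.05 in edgeR's quasi-likelihood test over all genes tested (Benjamini-Hochberg), and levels are given as CPM, counts scaled to a common library total. CPM is a share of the library, so less RNA per cell and fewer cells that express a gene cannot be told apart.

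In RNA, 2 members were called higher and 3 lower in SH2, where 61.4% of the 12710 genes tested were called (31.1% higher and 30.4% lower). SH3 had 0 members called higher and 5 lower, where 53% of genes were called (27.8% higher and 25.2% lower). So many genes were called in these comparisons that the members' totals lie close to or below the background. The members' median log2 change was -0.29 in SH2 and -0.30 in SH3, and over all genes tested it was 0.012 and 0.034. SH2 and SH3 share the SC libraries as their control, so the values of both hairpins are not independent. Of the 10 members, 2 were lower in both hairpins (HSP90AA1 and HSPA8), 1 was called in opposite directions (BAG3) and 3 were called in neither (HSF1, DNAJB1 and HSPB1). Of all 12710 genes tested, 2319 were lower in both, 244 were called in opposite directions and 3232 in neither. With replicate number as a block, 8 members were called in SH2 RNA, and with only SC and SH2 in the fit, 3 were. The share of all genes called in these fits was not counted, so these counts cannot be set against the background.

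**Figure D1:**
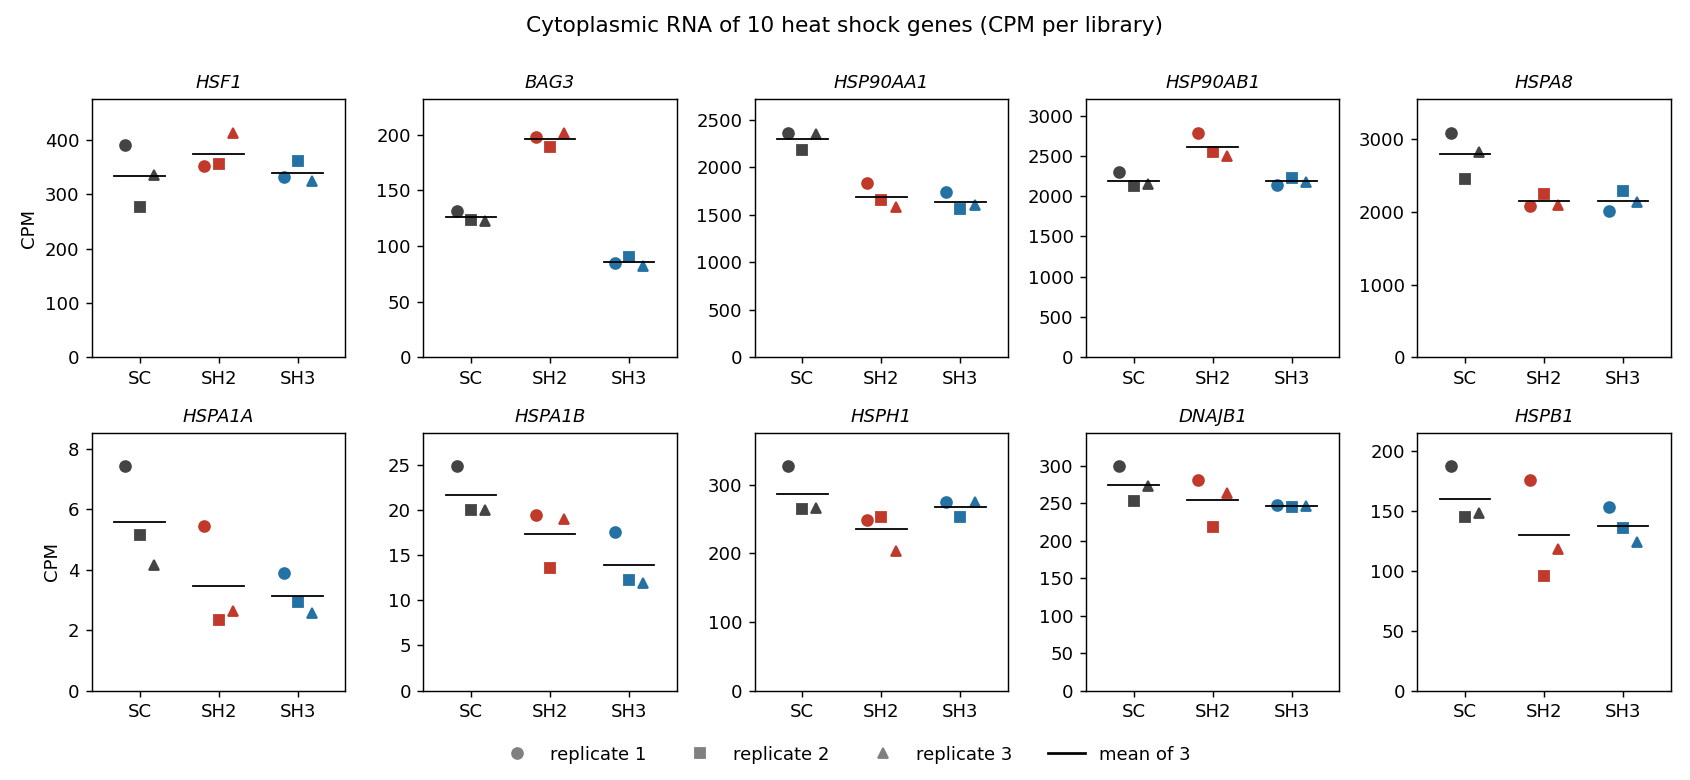
Cytoplasmic RNA of the 10 genes in CPM (vertical axis, from 0) for SC, SH2 and SH3, with 1 point per library, shapes for replicate numbers and a line at the mean of 3. BAG3 stands at 188 to 201 in SH2 and at 82.0 to 89.8 in SH3, on either side of SC, while HSP90AA1 and HSPA8 are lower than every SC library in all 6 hairpin libraries.

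In footprints, 2 members were called higher and 3 lower in SH2, where 44.2% of the 10345 genes tested were called (21% higher and 23.2% lower). SH3 had 0 members called higher and 4 lower, where 35.9% of genes were called (16.9% higher and 19% lower). Among these 4 is HSPA1A, which passed the filter on low counts through the SC libraries and SH2 replicate 2 and not through SH3. The members' median log2 change was -0.24 in SH2 and -0.22 in SH3, against -0.0042 and -0.014 over all genes tested. HSP90AA1 was lower in both hairpins, BAG3 was again called in opposite directions, and 3 members (HSP90AB1, HSPH1 and DNAJB1) were called in neither. Of all 10345 genes tested, 1245 were lower in both, 91 were called in opposite directions and 4508 in neither. In SH2 footprints 6 members were called with replicate number as a block, and 3 with only SC and SH2 in the fit. The share of all genes called was not counted in these fits, nor in those without single libraries, so their counts cannot be set against the background. Without single libraries the SH2 footprint count went down to 3 (without SC replicate 1 or 3, or SH2 replicate 1) or 2 (without SH2 replicate 3), and the SH3 footprint count to 2 (without SH3 replicate 2 or 3). In the direct comparison of SH2 with SH3, BAG3 and HSP90AB1 were called higher in SH2, both in RNA, where 18.9% of genes were called higher in SH2, 20.4% lower and 39.3% in either direction, and in footprints, where 12.1% were called higher and 23.8% in either direction. The other 8 members were not called between the hairpins in RNA or in footprints.

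**Figure D2:**
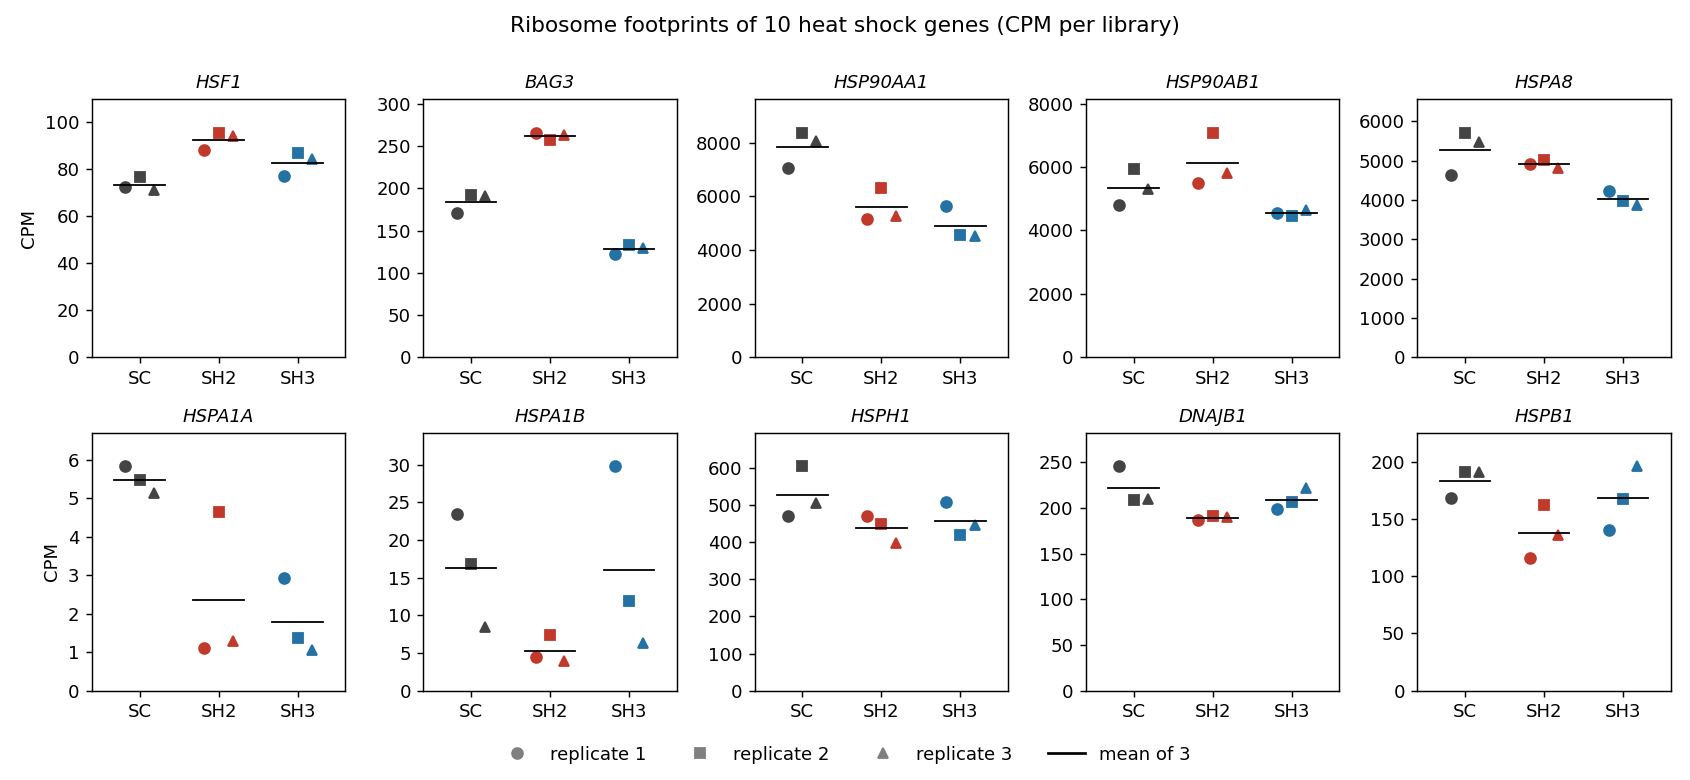
Ribosome footprints of the 10 genes in CPM (vertical axis, from 0), drawn as for RNA with 1 point per library and a line at the mean of 3. BAG3 and HSP90AA1 show the same order of groups as in RNA, HSF1 is higher than in SC in all 6 hairpin libraries, and HSPA1A and HSPA1B, with 3 to 145 counts per library, scatter widely.

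HSF1, the transcription factor of the response, had RNA at 391, 276 and 335 CPM in SC replicates 1, 2 and 3, at 352, 355 and 413 in SH2 and at 331, 361 and 324 in SH3. The groups overlapped, with the widest spread in SC (334 ± 57.4, SD, n = 3). The log2 change was 0.16 ± 0.12 (SE; adjusted p 0.260, edgeR) in SH2 and 0.021 ± 0.12 (SE; adjusted p 0.896, edgeR) in SH3, where the sign turned with DESeq2 size factors (-0.0071, adjusted p 0.965). Its footprints stood at 72.6, 76.9 and 71.0 CPM in SC, 88.3, 95.5 and 94.3 in SH2 and 77.1, 87.1 and 84.3 in SH3, from 132 to 448 counts per library. All 3 SH2 libraries were higher than all 3 of SH3, and these were higher than all 3 of SC by a narrow margin. The footprint change was 0.34 ± 0.13 (SE; adjusted p 0.0425, edgeR) in SH2, which passed the threshold, and 0.18 ± 0.13 (SE; adjusted p 0.306, edgeR) in SH3, which did not. The difference between the hairpins was not called (edgeR adjusted p 0.403). The SH2 call was lost with no filter on low counts (0.34, adjusted p 0.104), with only SC and SH2 in the fit (0.35, adjusted p 0.0628) and without SC replicate 1 (0.34, adjusted p 0.0769), SC replicate 3 (0.32, adjusted p 0.121), SH2 replicate 2 (0.33, adjusted p 0.106) or SH2 replicate 3 (0.34, adjusted p 0.0893), all in edgeR. Its adjusted p ran from 0.0320 to 0.121 over 14 settings run.

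BAG3, which links HSP70 to the small heat shock proteins and to selective autophagy, had 3 groups that did not overlap, in RNA and in footprints. Its RNA stood at 131, 123 and 122 CPM in SC, 198, 188 and 201 in SH2 and 84.8, 89.8 and 82.0 in SH3. Every SH2 library was higher than every SC library, and every SH3 library was lower. The log2 change came to 0.64 ± 0.084 (SE; adjusted p 1.79e-05, edgeR) in SH2 and -0.56 ± 0.084 (SE; adjusted p 0.000100, edgeR) in SH3, and the hairpins differed by 1.195 ± 0.085 (SE; adjusted p 2.79e-07, edgeR). Footprints followed, with 170.2, 192 and 191 CPM in SC, 266, 257 and 263 in SH2 and 122, 133 and 129 in SH3. The footprint change was 0.51 ± 0.12 (SE; adjusted p 0.00310, edgeR) in SH2 and -0.52 ± 0.12 (SE; adjusted p 0.00398, edgeR) in SH3, with a difference between the hairpins of 1.03 ± 0.12 (SE; adjusted p 3.47e-05, edgeR). Over the whole table, 244 of the 12710 genes tested in RNA and 91 of the 10345 tested in footprints were called higher in 1 hairpin and lower in the other. All 6 BAG3 calls held under every alternative run, and its promoter window shown above has no GAA and TTC pair of the searched form.

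HSP90AA1 encodes the inducible HSP90 alpha. Its RNA stood at 2362, 2185 and 2350.2 CPM in SC, 1834, 1659 and 1580.4 in SH2 and 1736, 1559 and 1599 in SH3. No hairpin library reached the lowest SC library. On the log2 scale the change was -0.44 ± 0.094 (SE; adjusted p 0.00103, edgeR) in SH2 and -0.50 ± 0.094 (SE; adjusted p 0.000601, edgeR) in SH3. Footprints stood at 7063, 8359 and 8065 CPM in SC, 5159.6, 6315 and 5262 in SH2 and 5634, 4550.1 and 4520.2 in SH3, again with no overlap with SC. They fell with log2 changes of -0.49 ± 0.13 (SE; adjusted p 0.00754, edgeR) in SH2 and -0.68 ± 0.13 (SE; adjusted p 0.00114, edgeR) in SH3. These 4 calls held under every alternative run. The direct comparison of the hairpins did not reach the threshold in RNA (edgeR adjusted p 0.691) or in footprints (edgeR adjusted p 0.333).

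HSP90AB1, the constitutive HSP90 beta, went the other way in SH2. Its RNA stood at 2296, 2124 and 2154 CPM in SC, 2788, 2544 and 2506 in SH2 and 2144, 2229 and 2181 in SH3. The SH2 libraries were all higher than those of SC, and the SH3 libraries lay within the SC range. Against SC this was a log2 change of 0.25 ± 0.089 (SE; adjusted p 0.0227, edgeR) in SH2 and -0.0043 ± 0.089 (SE; adjusted p 0.971, edgeR) in SH3, and the hairpins differed by 0.26 ± 0.089 (SE; adjusted p 0.0328, edgeR). Footprints stood at 4797, 5952 and 5308 CPM in SC, 5505, 7077 and 5810.3 in SH2 and 4546, 4461 and 4652 in SH3. SH3 was lower than all other libraries, and SH2 overlapped SC. Neither footprint change against SC passed the threshold, with 0.20 ± 0.13 (SE; adjusted p 0.232, edgeR) in SH2 and -0.23 ± 0.13 (SE; adjusted p 0.173, edgeR) in SH3, while the difference between the hairpins did, with 0.43 ± 0.13 (SE; adjusted p 0.0243, edgeR).

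The HSP90AB1 calls were less firm than those of HSP90AA1. The SH2 RNA call was lost in edgeR with only SC and SH2 in the fit (0.24, adjusted p 0.0661) and without SC replicate 2 (0.23, adjusted p 0.0696), SC replicate 3 (0.24, adjusted p 0.0719) or SH2 replicate 1 (0.21, adjusted p 0.0948), with an adjusted p of 0.00643 to 0.0948 over 14 settings. The RNA difference between the hairpins was lost with no filter on low counts (0.25, adjusted p 0.0610) and without SH2 replicate 1 (0.21, adjusted p 0.127), SH3 replicate 1 (0.27, adjusted p 0.0700) or SH3 replicate 3 (0.27, adjusted p 0.0852), with an adjusted p of 0.00327 to 0.127 over 13 settings. The footprint difference was lost without SH2 replicate 2 (0.32, adjusted p 0.122) and without SH3 replicate 1, 2 or 3 (0.42, adjusted p 0.0678; 0.41, adjusted p 0.0863; 0.44, adjusted p 0.0576), with an adjusted p of 0.0119 to 0.122 over 13 settings.

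The balance of the 2 HSP90 genes does not depend on library scaling, so it was also given as the share of HSP90AA1 in the summed counts of both, a share of counts and not of transcripts. In RNA this share was 50.7%, 50.7% and 52.2% in SC, 39.7%, 39.5% and 38.7% in SH2 and 44.7%, 41.1% and 42.3% in SH3. In footprints it was 59.6%, 58.4% and 60.3% in SC, 48.4%, 47.2% and 47.5% in SH2 and 55.3%, 50.5% and 49.3% in SH3. All hairpin libraries were lower than all SC libraries of the same kind. Against SC the mean RNA share differed by -11.9 percentage points in SH2 and -8.47 in SH3, and the mean footprint share by -11.7 and -7.71. Each of these differences had an exact two-sided permutation p of 0.1 (adjusted 0.2 over 18 such tests), which is the smallest that 3 against 3 libraries allow. HSP90 genes and HSPA8 have many processed pseudogenes, and how reads that match several places were counted is not given in the sources used here.

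**Figure D3:**
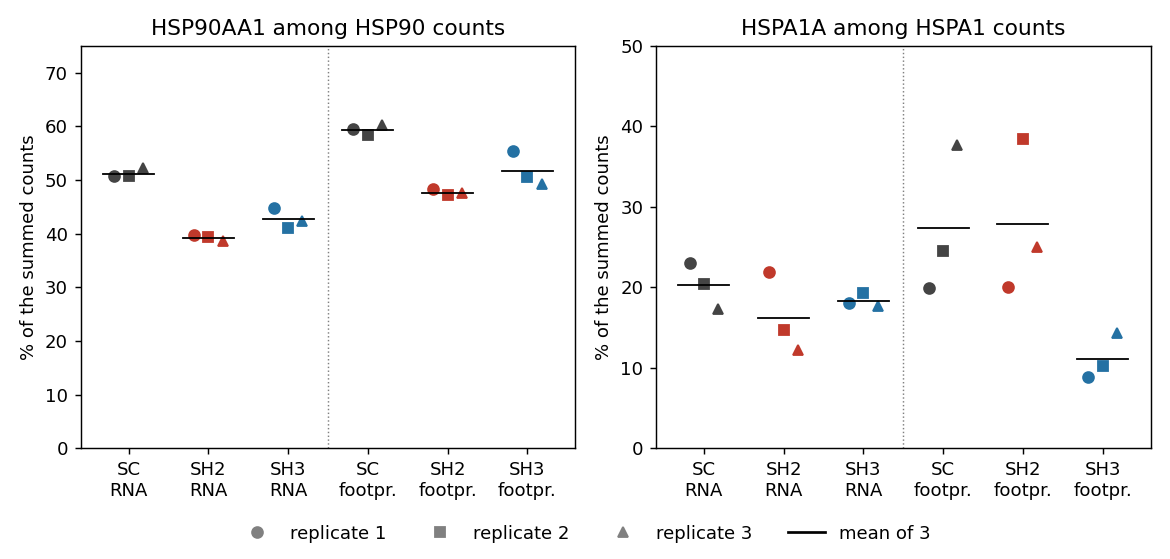
Share of HSP90AA1 in the counts of HSP90AA1 and HSP90AB1 (left) and of HSPA1A in the counts of HSPA1A and HSPA1B (right), in percent per library, with 1 point per library and a line at the mean of 3 for RNA and footprints. The HSP90AA1 share is 50.7% to 60.3% in SC and lower in every hairpin library of the same kind, while the HSPA1A share overlaps between groups except in SH3 footprints.

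HSPA8, the constitutive HSP70 that also uncoats clathrin vesicles, had RNA at 3090.2, 2459 and 2832 CPM in SC, 2086, 2252 and 2100.0 in SH2 and 2016, 2288 and 2145 in SH3. All hairpin libraries were lower than all SC libraries. Against SC this was a log2 change of -0.38 ± 0.10 (SE; adjusted p 0.00539, edgeR) in SH2 and -0.38 ± 0.10 (SE; adjusted p 0.00678, edgeR) in SH3, and both calls held under every alternative run. Its footprints stood at 4642, 5707 and 5465 CPM in SC, 4922, 5022 and 4809 in SH2 and 4230.3, 3983 and 3872 in SH3. SH2 lay within the SC range, and SH3 was lower than it. The footprint change was -0.10 ± 0.12 (SE; adjusted p 0.516, edgeR) in SH2 and -0.39 ± 0.12 (SE; adjusted p 0.0180, edgeR) in SH3, and the difference between the hairpins was not called (edgeR adjusted p 0.0883). The SH3 footprint call was lost in edgeR without SC replicate 2 (-0.32, adjusted p 0.0581), SC replicate 3 (-0.35, adjusted p 0.0729), SH3 replicate 2 (-0.37, adjusted p 0.0679) or SH3 replicate 3 (-0.35, adjusted p 0.0745), with an adjusted p of 0.00468 to 0.0745 over 13 settings.

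HSPA1A and HSPA1B encode the stress-inducible HSP70 from near-identical coding sequences, so reads may have been divided between them, and their sum is given too. Both were scarce in these cells. HSPA1A RNA stood at 7.43, 5.15 and 4.17 CPM in SC, 5.45, 2.33 and 2.63 in SH2 and 3.88, 2.94 and 2.57 in SH3. SH3 was lower than SC throughout, and SH2 replicate 1 lay within the SC range. The log2 change was -0.69 ± 0.30 (SE; adjusted p 0.0622, edgeR) in SH2 and -0.83 ± 0.31 (SE; adjusted p 0.0340, edgeR) in SH3. HSPA1B RNA stood at 24.8, 20.0 and 19.9 CPM in SC, 19.4, 13.5 and 19.0 in SH2 and 17.6, 12.3 and 11.9 in SH3. Neither hairpin overlapped SC, although SH2 replicate 1 came close to it. The log2 change came to -0.32 ± 0.17 (SE; adjusted p 0.125, edgeR) in SH2 and -0.63 ± 0.18 (SE; adjusted p 0.00773, edgeR) in SH3. For the sum of both genes, mean RNA was 27.2 ± 4.42 CPM for SC, 20.8 ± 4.55 for SH2 and 17.1 ± 3.85 for SH3 (SD, n = 3 each), a log2 change of -0.39 ± 0.18 (SE; adjusted p 0.0799, edgeR) and of -0.67 ± 0.18 (SE; adjusted p 0.00723, edgeR).

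Which of these RNA changes passed the threshold depended on the fit. With replicate number as a block, the SH2 changes were called for HSPA1A (-0.72, adjusted p 0.00231), for HSPA1B (-0.32, adjusted p 0.0330) and for their sum (-0.39, adjusted p 0.00839), all in edgeR. HSPA1A in SH2 was also called with no filter on low counts (-0.69, adjusted p 0.0272), in the DESeq2 Wald test (-0.70, adjusted p 0.0444), and in edgeR without SC replicate 3 (-0.86, adjusted p 0.0360) or SH2 replicate 1 (-1.17, adjusted p 0.00224), with an adjusted p of 0.00201 to 0.231 over 13 settings. The HSPA1A call in SH3 was lost in edgeR without SC replicate 1 (-0.59, adjusted p 0.133), SH3 replicate 2 (-0.83, adjusted p 0.0860) or SH3 replicate 3 (-0.74, adjusted p 0.102), with an adjusted p of 0.00116 to 0.133 over 12 settings. The sum in SH2 was called with no filter on low counts (-0.39, adjusted p 0.0452) and without SH2 replicate 1 (-0.53, adjusted p 0.0302), with an adjusted p of 0.00622 to 0.290 over 13 settings. HSPA1B and the sum in SH3 kept their calls under every alternative run.

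Footprints of the HSPA1 genes rested on few counts. HSPA1A had 36, 13 and 29 counts in SC, 3, 20 and 4 in SH2 and 5, 4 and 3 in SH3, which as CPM were 5.83, 5.46 and 5.14, then 1.11, 4.65 and 1.29, and 2.92, 1.37 and 1.05. Both hairpins were lower than SC in every library. On the log2 scale the change was -1.08 ± 0.44 (SE; adjusted p 0.0551, edgeR) in SH2 and -1.74 ± 0.52 (SE; adjusted p 0.0158, edgeR) in SH3. HSPA1A footprints passed the filter on low counts through the SC libraries and SH2 replicate 2, with every SH3 library under its level. A gene let in by its SC level could hardly be called other than lower in SH3. HSPA1B had 145, 40 and 48 counts in SC, 12, 32 and 12 in SH2 and 51, 35 and 18 in SH3, or 23.5, 16.8 and 8.50 CPM, then 4.43, 7.44 and 3.88, and 29.8, 12.0 and 6.30. SH2 was lower than SC throughout, while SH3 replicate 1 was the highest library of all and SH3 overlapped SC. Against SC this was a log2 change of -1.58 ± 0.48 (SE; adjusted p 0.0141, edgeR) in SH2 and -0.13 ± 0.44 (SE; adjusted p 0.844, edgeR) in SH3, where the sign turned without SC replicate 1 (0.34, adjusted p 0.601 in edgeR). The sum had changes of -1.45 ± 0.44 (SE; adjusted p 0.0135, edgeR) and -0.39 ± 0.42 (SE; adjusted p 0.495, edgeR), so the summed inducible HSP70 passed the threshold in SH2 footprints and not in SH3 footprints. The difference between the hairpins was not called for the sum (edgeR adjusted p 0.119).

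Single libraries weighed on these footprint calls. For HSPA1A in SH2 the change was called with the replicate block (-1.21, adjusted p 0.0311), with no filter on low counts (-1.08, adjusted p 0.0313) and without SH2 replicate 2 (-2.14, adjusted p 0.00394), all in edgeR, with an adjusted p of 0.00394 to 0.200 over 13 settings. Without SH2 replicate 2 the gene passed the filter through SC libraries alone. It could then hardly be called other than lower, so that call is no support. In SH3 its call was lost in edgeR without SH3 replicate 2 (-1.59, adjusted p 0.0772) or SH3 replicate 3 (-1.45, adjusted p 0.0876), with an adjusted p of 0.00317 to 0.0876 over 12 settings. The HSPA1B call in SH2 was lost in edgeR without SC replicate 1 (-1.11, adjusted p 0.0747), SH2 replicate 1 (-1.46, adjusted p 0.0535) or SH2 replicate 3 (-1.39, adjusted p 0.0628), with an adjusted p of 2.80e-06 to 0.0747 over 13 settings. The call of the sum in SH2 was lost in edgeR without the same 3 libraries (-1.11, adjusted p 0.0543; -1.27, adjusted p 0.0594; -1.22, adjusted p 0.0665), with an adjusted p of 1.58e-06 to 0.0665 over 13 settings.

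The share of HSPA1A in the counts of HSPA1A and HSPA1B had means of 20.3% ± 2.88 in SC RNA, 16.3% ± 5.06 in SH2 RNA and 18.4% ± 0.820 in SH3 RNA (SD, n = 3 each), and these groups overlapped. In footprints the means were 27.4% ± 9.22 in SC, 27.8% ± 9.55 in SH2 and 11.2% ± 2.79 in SH3 (each mean ± SD, n = 3). The SH3 footprint libraries, with 8.93%, 10.3% and 14.3% of 56, 39 and 21 counts, were lower than all others, a difference from SC of -16.2 percentage points (exact permutation p 0.1, adjusted 0.2). The inducible genes together made up 0.963% ± 0.104 of the counts of HSPA1A, HSPA1B and HSPA8 in SC RNA, 0.965% ± 0.243 in SH2 and 0.795% ± 0.224 in SH3 (each mean ± SD, n = 3), with overlap. In footprints this share was 0.422% ± 0.191 in SC, 0.153% ± 0.0752 in SH2 and 0.430% ± 0.301 in SH3 (each mean ± SD, n = 3). It was lower than in SC in all 3 SH2 footprint libraries (exact permutation p 0.1, adjusted 0.2), while SH3 overlapped SC.

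HSPH1, the HSP110 exchange factor of HSP70, had RNA at 327, 265 and 266 CPM in SC, 248, 254 and 204 in SH2 and 275, 253 and 275 in SH3. SH2 was lower than SC in every library, and SH3 overlapped SC. Against SC this was a log2 change of -0.28 ± 0.11 (SE; adjusted p 0.0400, edgeR) in SH2 and -0.095 ± 0.11 (SE; adjusted p 0.494, edgeR) in SH3. The SH2 call was lost in edgeR with only SC and SH2 in the fit (-0.30, adjusted p 0.0527) and without SC replicate 1 (-0.19, adjusted p 0.132) or SH2 replicate 3 (-0.21, adjusted p 0.121), with an adjusted p of 0.0118 to 0.132 over 14 settings. Its footprints stood at 470.1, 604 and 506 CPM in SC, 470.2, 448 and 399 in SH2 and 507, 419 and 447 in SH3, and both hairpins overlapped SC. The footprint changes, -0.26 ± 0.14 (SE; adjusted p 0.132, edgeR) in SH2 and -0.20 ± 0.14 (SE; adjusted p 0.263, edgeR) in SH3, did not pass the threshold.

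DNAJB1, the J-domain partner that stimulates HSP70, had RNA at 299, 252 and 273 CPM in SC, 281, 219 and 264 in SH2 and 247, 245 and 246 in SH3. The 3 SH3 libraries were nearly equal and lay just under the lowest SC library. Its footprints stood at 246, 209 and 209.7 CPM in SC, 187, 191 and 189.9 in SH2 and 199, 206 and 221 in SH3. Here SH2 lay under SC and SH3 overlapped it. No DNAJB1 change was called, with RNA changes of -0.11 ± 0.10 (SE; adjusted p 0.372, edgeR) in SH2 and -0.16 ± 0.10 (SE; adjusted p 0.213, edgeR) in SH3 and footprint changes of -0.23 ± 0.13 (SE; adjusted p 0.151, edgeR) and -0.086 ± 0.13 (SE; adjusted p 0.627, edgeR).

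HSPB1, the small heat shock protein HSP27, had RNA at 187, 145 and 148 CPM in SC, 176, 95.7 and 118 in SH2 and 153, 135 and 124 in SH3. Replicate 1 was the highest of its group in all 3 treatments, and both hairpins overlapped SC. The log2 change was -0.30 ± 0.18 (SE; adjusted p 0.155, edgeR) in SH2 and -0.22 ± 0.18 (SE; adjusted p 0.320, edgeR) in SH3. The SH2 change was called with the replicate block (-0.33, adjusted p 0.0163) and without SH2 replicate 1 (-0.58, adjusted p 0.00303), both in edgeR, with an adjusted p of 0.00303 to 0.511 over 14 settings. Footprints stood at 168, 191 and 191 CPM in SC, 116, 162 and 136 in SH2 and 140.2, 168 and 196 in SH3. SH2 was lower than SC in every library, and SH3 overlapped SC. The footprint change was -0.40 ± 0.16 (SE; adjusted p 0.0448, edgeR) in SH2 and -0.12 ± 0.16 (SE; adjusted p 0.581, edgeR) in SH3. The SH2 footprint call was lost in the DESeq2 Wald test (-0.40, adjusted p 0.0508) and in edgeR with only SC and SH2 in the fit (-0.40, adjusted p 0.0572) or without SC replicate 2 (-0.37, adjusted p 0.0763), SC replicate 3 (-0.37, adjusted p 0.127), SH2 replicate 1 (-0.29, adjusted p 0.192) or SH2 replicate 3 (-0.38, adjusted p 0.119), with an adjusted p of 0.0135 to 0.192 over 14 settings.

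**Figure D4:**
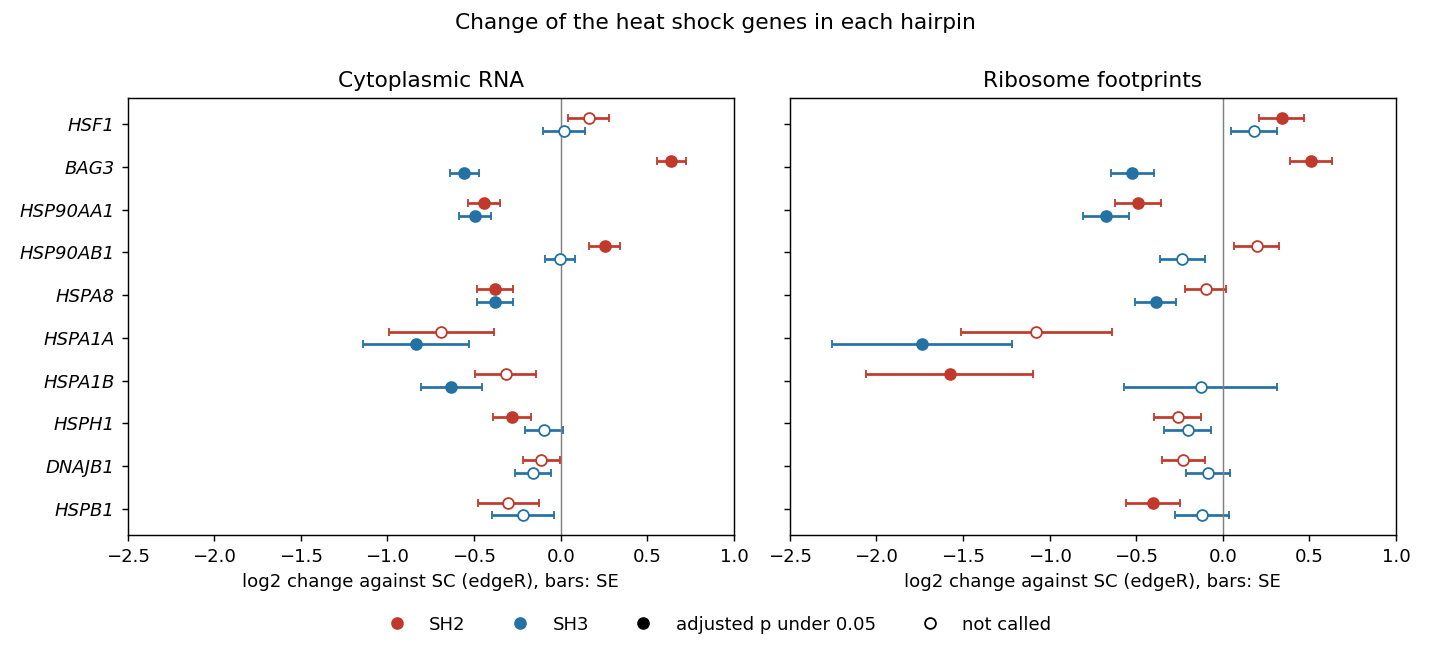
Log2 change of each gene against SC in RNA (left) and footprints (right), with bars of 1 SE from edgeR, SH2 in red and SH3 in blue, filled where the adjusted p is under 0.05. BAG3 lies on opposite sides of 0 in the hairpins in both panels, HSP90AA1 lies under 0 with filled points throughout, and the HSPA1 genes have the widest bars.

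The ratio of footprints to RNA, a measure of ribosome load per transcript, was compared between groups as the footprint change minus the RNA change in 1 fit of all 18 libraries. None of the 10 members was called in SH2, where edgeR called 3.9% of 12531 genes tested (1.44% higher and 2.46% lower), in SH3, where it called 0.686% (0.375% higher), or between the hairpins, where it called 0.016%. The DESeq2 Wald test also called 0 members in each of these comparisons. In simulated data the edgeR ratio fit recovered 5% of genes with a true log2 change of 0.5 and 74% with 1. A ratio that was not called may therefore still have changed. At an unadjusted p under 0.05 there was 1 member in SH2 (HSPA1B), 0 in SH3 and 1 between the hairpins (HSPA1B). The members' changes ran from -1.27 (HSPA1B) to 0.27 (HSPA8) in SH2 and from -0.92 (HSPA1A) to 0.48 (HSPA1B) in SH3. The HSPA1B change in SH2 was -1.27 ± 0.54 (SE; adjusted p 0.205, edgeR) and in SH3 0.48 ± 0.50 (SE; adjusted p 0.754, edgeR). HSPA8, whose RNA fell in both hairpins while its footprints passed the threshold in SH3 alone, had ratio changes of 0.27 ± 0.14 (SE; adjusted p 0.332, edgeR) in SH2 and 0.0043 ± 0.14 (SE; adjusted p 1.000, edgeR) in SH3. The members' median ratio change was -0.088 in SH2 and 0.025 in SH3, against -0.019 and -0.044 over all genes tested.

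In the SC control itself the members spanned most of the range of ratios. On the scale of log2 (footprint CPM + 0.5) minus log2 (RNA CPM + 0.5), HSP90AA1 stood at 1.76, higher than 99.3% of the 12531 genes tested, and HSP90AB1 at 1.28 (97.2%). HSPA8 stood at 0.92 (92.9%), HSPH1 at 0.88 (92.1%), BAG3 at 0.55 (83.4%) and HSPB1 at 0.20 (70.9%). HSPA1A stood at 0.0083 (62.4%), DNAJB1 at -0.31 (49.4%) and HSPA1B at -0.50 (41.6%). HSF1 was the lowest, at -2.16, higher than 5.44% of genes. RNA reads can come from a whole transcript and footprints come from its translated part, and the share of each transcript that is coding was not used here, so the order of genes on this scale is a description of counts.

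The authors' deposited table also holds DESeq2 results for SH2 and for SH3 against SC, in RNA and in footprints. Its adjusted p fell on the same side of 0.05 as that of edgeR for every member and comparison except HSPA1A RNA in SH2, where it was 0.0462, and HSPB1 footprints in SH2, where it was 0.0561. For HSF1 footprints in SH2 the authors' deposited table gives a log2 change of 0.35 with an adjusted p of 0.0492. A further measure of that table, named RD, holds the same log2 change in the SH2 and SH3 columns for all 17017 genes, and it was not used here. Of the members, only HSPA1B had an RD adjusted p under 0.05 (0.0458, authors' DESeq2), beside a shared log2 change of 0.57. Which comparison that p or that change belongs to is not known, so it is not read as a rise. The edgeR ratio changes of HSPA1B had opposite signs, -1.27 in SH2 and 0.48 in SH3, and neither was called. HSPA1A had no RD adjusted p.

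Genes that work with the members were then counted by role, from 7 lists of 78 genes, of which 74 were in the table. Their counts are to be read against the shares of all genes called, which were 61.4% in SH2 RNA, 53% in SH3 RNA, 44.2% in SH2 footprints and 35.9% in SH3 footprints, and their medians against 0.012 in SH2 RNA and 0.034 in SH3 RNA over all genes tested. Among relatives of HSP70 and HSP110, 1 of 7 tested was higher and 4 were lower in RNA in each hairpin, a total near the background for so few genes. HSPA4, a further HSP110-type exchange factor, rose by 0.44 in SH2 and 0.51 in SH3 on the log2 scale. HSPA14, an HSP70 that works at the ribosome, fell with changes of -2.01 and -0.60, and HSPA2, best known from the testis, with -1.63 and -2.03 from 6 to 46 counts per library. HSPA2 passed the filter on low counts through SC, and its SH3 libraries lay under the level of that filter. In footprints 0 of 3 were higher and 2 lower in each, among them HSPA4L (-1.08 and -0.67) and HSPA14 (-1.70 and -0.72). Their median RNA change was -1.11 in SH2 and -0.53 in SH3.

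Among J-domain proteins and exchange factors of HSP70, 7 of 15 were higher and 3 lower in SH2 RNA, and 3 were higher and 2 lower in SH3 RNA, near the 61.4% of all genes called in SH2 and under the 53% called in SH3, with medians of 0.24 and 0.13. HSPBP1, an exchange factor, rose by 0.81 and 0.43, DNAJC7 by 0.54 and 0.49, and DNAJB4, a J-domain protein of the same class as DNAJB1, fell with -1.18 and -0.55. Without SH3 replicate 2 the HSPBP1 call in SH3 was lost (0.32, adjusted p 0.0585 in edgeR), and without SC replicate 1 the DNAJC7 change in SH3 was 0.32. In footprints 3 were higher in each hairpin, and 3 were lower in SH2 and 2 in SH3. HSPBP1 rose by 0.55 and 0.57 and BAG6 by 0.45 and 0.47, while BAG2 fell with -0.86 and -0.67. The BAG6 calls were lost in edgeR without SH2 replicate 3 in SH2 (0.40, adjusted p 0.0534) and without SH3 replicate 2 in SH3 (0.44, adjusted p 0.0511).

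Among 16 co-chaperones of HSP90, 3 were higher and 6 lower in SH2 RNA, and 3 higher and 4 lower in SH3 RNA, totals under the 61.4% and 53% of all genes called, with medians of -0.17 and -0.014. ST13 rose by 0.57 and 0.58, and STUB1, a ubiquitin ligase for chaperone clients, by 0.42 and 0.42. PTGES3 (p23), which stabilises client-bound HSP90, fell with -0.78 and -0.62, and NUDCD2 with -0.98 and -0.56. In footprints 1 was higher in each hairpin (ST13, 0.67 and 0.74), and 7 were lower in SH2 and 3 in SH3. NUDCD2 fell there with -1.15 and -0.56 and CHORDC1 with -0.42 and -0.72. In edgeR the CHORDC1 call in SH2 was lost without SC replicate 1 (-0.31, adjusted p 0.0836), SH2 replicate 2 (-0.40, adjusted p 0.0606) or SH2 replicate 3 (-0.37, adjusted p 0.0758). The NUDCD2 call in SH3 was lost in edgeR without SC replicate 1 (-0.51, adjusted p 0.0614), SC replicate 3 (-0.49, adjusted p 0.112), SH3 replicate 2 (-0.52, adjusted p 0.110) or SH3 replicate 3 (-0.50, adjusted p 0.112).

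Of the other genes listed as small heat shock proteins, 2 were tested in RNA and 1 was called. This was HSPB11, listed by its symbol and part of the intraflagellar transport complex. HSPB11 was lower in both hairpins (-0.40 and -0.49) and lower in footprints too (-0.82 and -1.20). Its RNA call in SH2 was lost in edgeR without SC replicate 3 (-0.33, adjusted p 0.0641), and its footprint call in SH2 without SC replicate 1 (-0.37, adjusted p 0.221), SH2 replicate 2 (-0.79, adjusted p 0.0795) or SH2 replicate 3 (-0.70, adjusted p 0.110). Without SC replicate 1 its SH3 footprint change was -0.73. Among other heat shock factors and regulators of HSF1, 2 of 9 were higher and 2 lower in SH2 RNA, and 3 higher and 1 lower in SH3 RNA. HSBP1, a small protein that binds the trimer domain of HSF1, fell with -0.84 and -0.72 in RNA and -1.08 and -0.72 in footprints. EP300, an acetyltransferase that acts on HSF1 among many proteins, rose by 0.59 and 0.49 in RNA and 0.56 and 0.75 in footprints. In footprints these were the only calls among the 7 tested of this list, in both hairpins.

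The list of other stress-inducible targets of HSF1 had 5 of 9 genes higher and 1 lower in SH2 RNA and 6 higher and 0 lower in SH3 RNA, with 61.4% and 53% of all genes called there. Its medians were 0.94 and 0.55, against 0.012 and 0.034 over all genes tested, and the difference of this list from the members was not tested. SERPINH1, the collagen chaperone HSP47 of the endoplasmic reticulum, rose by 1.35 and 0.81. Footprints had 4 of 9 higher and 1 lower in SH2 against 2 higher and 0 lower in SH3, with DEDD2 higher in both (1.11 and 0.84). Among 10 mitochondrial chaperones and proteases, 2 were higher and 3 lower in SH2 RNA, and 3 and 3 in SH3 RNA, near the shares of all genes called (61.4% and 53%). HSPE1 and HSPD1, the HSP10 and HSP60 partners of the mitochondrial folding chamber, fell with -1.01 and -0.93 and with -0.62 and -0.55, while CLPB rose by 0.52 and 0.54. In footprints 1 was higher and 4 lower in each hairpin, with HSPE1 at -0.82 and -0.88, CLPP at -0.81 and -0.68 and CLPB at 0.46 and 0.67. The CLPB call in SH2 footprints was lost in edgeR without SC replicate 1 (0.40, adjusted p 0.0535), SH2 replicate 2 (0.40, adjusted p 0.0739) or SH2 replicate 3 (0.44, adjusted p 0.0514).

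Genes whose RNA varied most like that of the members were found by Pearson's r of log2 CPM over the 9 RNA libraries among 12700 other genes, as a description with no p, since the libraries share treatments and scaling. For HSF1 these were HLX (0.956), DPP7 (0.946), SLC10A3 (0.925), FJX1 (0.924) and FEM1A (0.914). For the sum of HSPA1A and HSPA1B they were ADAMTS16 (0.965), CDK5R1 (0.958), MAPKBP1 (0.955), MGLL (0.946) and SLC7A7 (0.946). None of these 10 genes is on a chaperone list used here. Members were left out of the ranking, and the lists hold only 74 genes of the table, so this absence says little.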

How the data were processed

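Cytoplasmic RNA and ribosome footprints (reads of 26 to 30 bases, per the file headers) were measured in 18 libraries, 3 replicates of 6 groups. The authors deposited raw counts per gene, 1 column per library, and per the file headers also DESeq2-normalized signal, which was found to be each count divided by 1 size factor per library and was not used further. The deposited log2 fold changes and p-values of the authors' own DESeq2 comparisons were only set beside the results. Per the submitters' processing notes Bowtie 1.2.2 and DESeq2 were used. The genome build, the annotation, the counting tool and the treatment of reads that match several places are not given in the sources used here.

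Counts were tested with edgeR 4.0.16 in R 4.3.3 (TMM scaling, filterByExpr, quasi-likelihood test, Benjamini-Hochberg adjustment over all genes tested), in 1 fit of the 9 RNA libraries, 1 of the 9 footprint libraries and 1 of all 18 for the ratio, with no block. CPM are per TMM-scaled library. The fits were tested on simulated data with a set spread between replicates. For a true log2 change of 0.5 in SH2, 77% of changed genes were recovered in RNA, 20% in footprints and 5% in the ratio. For a true change of 1 these shares were 100%, 89% and 74%. Each simulation changed 100 genes by each size. That is far fewer than were called in the data (7805 in SH2 RNA), so recovery there may differ. Paralog shares were compared with exact permutation tests. The alternatives were DESeq2 size factors, no filter, the Wald test of DESeq2 1.42.0, only the groups compared, a replicate block, HSPA1A and HSPA1B summed, and each replicate left out. Replicate numbers were taken to pair SC with SH2 within RNA and within footprints, since every same-numbered pair of these groups deviated together across genes (r of 0.295 to 0.358 in RNA and 0.249 to 0.297 in footprints), which did not hold for SH3.

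All 10 members are named in each comparison. Of each other list and measure, the text names up to 2 genes with the highest and up to 2 with the lowest mean change among those called the same way in both hairpins. A gene that this rule names is not reported here. The members, lists and tests were chosen with earlier results of these data known. Promoter windows come from RefSeq on GRCh38.p14, whose build could not be matched to that of the counts.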

Additional observations from a re-analysis of the deposited data

Results flagged for a closer look

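BAG3 and HSP90AB1 responded differently to the hairpins by a direct test of SH2 against SH3. For BAG3, RNA was 1.195 higher on the log2 scale in SH2 than in SH3 (edgeR adjusted p 2.79e-07), and footprints were 1.03 higher (edgeR adjusted p 3.47e-05), with all 3 SH2 libraries higher than all 3 SH3 libraries in both. For HSP90AB1, RNA was 0.26 higher in SH2 (edgeR adjusted p 0.0328) and footprints were 0.43 higher (edgeR adjusted p 0.0243), also without overlap. What sets the hairpins apart was not tested.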

How the results depend on the processing

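Of 23 called changes of single members, 13 kept their call under every alternative run, those of BAG3 (6), HSP90AA1 (4 against SC), HSPA8 RNA (2) and HSPA1B RNA in SH3. The members called in SH2 RNA were 5, with 3 when only the groups compared were fitted and 8 with the replicate block, and the pairing of SC with SH2 alone, an alternative chosen after seeing the data, also gave 8. The block changed no call of the members beside those named with it above. Shares of all genes called were counted for the main fits only, so the member counts of other fits cannot be set against the background. With each replicate left out, the count in SH2 RNA ran from 4 to 6, in SH3 RNA from 4 to 5, in SH2 footprints from 2 to 5 (3 with only the groups compared, 6 with the block) and in SH3 footprints from 2 to 4. Between the hairpins it ran from 1 to 3 in RNA (1 without SH2 replicate 1 or SH3 replicate 3, and 1 with no filter) and from 1 to 2 in footprints (1 without SH2 replicate 2, SH3 replicate 1 or SH3 replicate 2). The ratio gave 0 throughout. Its replicate block joined RNA and footprints of the same number. By their correlations these numbers appear crossed in SC and SH2, which no label states, so that setting adds nothing to this result. Changes that turned sign were all uncalled. They were HSF1 RNA in SH3 (-0.0071 with DESeq2 size factors or the Wald test, -0.014 with only the groups compared, -0.10 to 0.13 with a replicate left out), HSP90AB1 RNA in SH3 (0.0035 with no filter, -0.052 to 0.014) and the HSPA8 ratio in SH3 (-0.00071 with no filter, -0.14 to 0.13). With a replicate left out, SH3 footprints ran from -0.82 to 0.34 for HSPA1B, -1.06 to 0.020 for HSPA1A and HSPA1B summed, -0.12 to 0.011 for DNAJB1 and -0.24 to 0.0032 for HSPB1. The cause was not tested. Of 66 changes of named list genes, 8 lost a call in any of 825 alternatives. Footprint totals were lower than RNA totals, which limits the HSPA1 genes most.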

Other observations

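HSPA6, a strictly stress-inducible HSP70 that is not among the 10 genes, was named after its values were seen. Its RNA stood at 11.7, 4.41 and 6.17 CPM in SC, 3.57, 3.05 and 3.27 in SH2 and 3.40, 2.10 and 2.76 in SH3. All hairpin libraries were lower than all SC libraries, and SC replicate 1 was the highest. The log2 change was -1.17 ± 0.30 (SE; adjusted p 0.00344, edgeR) in SH2 and -1.43 ± 0.30 (SE; adjusted p 0.00129, edgeR) in SH3. Footprints of HSPA6 were too few to be tested, with 15, 23 and 19 counts in SC, 9, 12 and 7 in SH2 and 3, 5 and 4 in SH3.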
